A study of Mus musculus with 6 samples.

Results

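The genes of the cytosolic ribosomal proteins were followed in whole oviducts of mice on day 2 of pregnancy, in Cdc42f/f controls (n = 3 libraries) and in PgrCreCdc42f/f mice (n = 3). They were taken by symbol, as all rows whose name starts with Rpl or Rps and a digit together with Rplp0, Rplp1, Rplp2 and Rpsa, without the kinases of the Rps6k family and without rows named as pseudogenes. The rule gave 93 of the 55276 rows of the table. Of these, 77 are the canonical genes, 46 of the large subunit and 31 of the small subunit. The other 16 are paralogs, retrotransposed copies and genes that only share the name. Fau, which encodes a small subunit protein fused to a ubiquitin-like protein, and Rack1, a scaffold on the small subunit, lie outside the rule and are given separately.

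All mice were C57BL/6 females, and both groups carried the floxed allele of Cdc42, a small GTPase of cell polarity, with loxP sites around exon 2. In the PgrCreCdc42f/f mice a Cre recombinase expressed from the progesterone receptor gene Pgr, with 1 Cre allele, deletes that exon in the cells where Pgr is active, and the controls were littermates. The study compared the genotypes to learn what the oviduct loses with CDC42. The study calls the libraries biological replicates and gives 3 mice per group. Whole oviduct RNA mixes many cell types, so fewer cells of a type and less RNA per cell cannot be told apart.

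The 6 libraries held 42.4 to 46.4 M reads, recovered as described for the levels. Cdc42, the targeted gene, was not called. It measured 133 ± 7.92 RPKM in the controls against 120.02 ± 5.99 RPKM in PgrCreCdc42f/f oviducts (SD, n = 3), without overlap (log2 difference -0.15, limma adjusted p = 0.359, exact two-sided permutation p = 0.1, the smallest that 3 against 3 allows). Of all tested genes, 13.9% also lay below the controls without overlap. The value covers all exons, not the deleted one alone. The study reports reduced Cdc42 mRNA and protein in PgrCreCdc42f/f oviducts by qPCR and western blot. Its immunostaining found the protein missing in the isthmus only, whereas the libraries come from whole oviducts.

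The ribosome is built from ribosomal RNA and a single copy of nearly every ribosomal protein. The small subunit decodes the mRNA, and the large subunit joins the amino acids. In vertebrates the mRNAs of these proteins start with a pyrimidine run, the 5' TOP motif, through which the growth kinase mTOR controls their translation together. They are among the most abundant mRNAs of any cell, and many have processed pseudogenes in the genome.

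The starts of these genes are shown first, since the run of C and T is the feature known for the class. RefSeq starts on GRCm38 were matched by symbol for 57 of the canonical genes. A run of at least 8 consecutive C or T on the strand of the gene, reaching to within 10 bases of the annotated start, stood at 28 of their 67 starts (41.8%) and at 4605 of all 32851 starts (14.0%). The longest run at each start is in capitals below, for 4 genes with such a run and for 2 without.
Rpl7a (chr2:26910791-26910816, plus strand): aaTTCCCTCTTCTTTCTTTCTCCagc
Rps27 (chr3:90213633-90213658, minus strand): cgctttcgCTCCTTTCCggcggtgac
Rps26 (chr10:128626486-128626511, minus strand): ccgccggaTCCTCTTTCgagtcttgg
Rps24 (chr14:24490667-24490692, plus strand): cgctggggTCCTTCCTTgcgcgttga
Rplp0 (chr5:115559443-115559468, plus strand): gacgacgtcgTCTTCgggtttcgagg
Rps7 (chr12:28635952-28635977, minus strand): ttcagaagagCTTCCggtttccaccc
The run of Rpl7a, a large subunit protein, was the longest at 21 bases. Those of Rps27, Rps26 and Rps24 were 9 bases each. At Rplp0 and Rps7 the longest run was 5 bases, so that no run of 8 is in this window. Another matched start of Rps24 had a longest run of 2 bases. Shorter runs and starts other than the annotated ones were not counted, so these shares are not counts of 5' TOP motifs.

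The ribosomal protein genes were abundant in every library. RPKM values are reads per kilobase of annotated exon, scaled to the reads of the library. Multiplying them by the exon length of the gene returned whole reads for 91 of the 93 genes, within 0.01 of a read, and the other 2 were listed at 0 in all libraries. The 77 canonical genes together held 1.61, 1.54 and 1.77 M of these reads in Cdc42f/f libraries 1 to 3. In the PgrCreCdc42f/f libraries they held 1.69, 1.42 and 1.43 M. As a share of all recovered reads this was 3.76, 3.52 and 3.81% in the controls (3.70% ± 0.156, SD, n = 3) and 3.80, 3.35 and 3.09% in the PgrCreCdc42f/f libraries (3.41% ± 0.354). The groups overlapped, since PgrCreCdc42f/f library 1 lay between control libraries 1 and 3. The lowest library of all was PgrCreCdc42f/f library 3.

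Rps15, a small subunit protein at the decoding centre, had the highest level, with 1093, 1077 and 1159 RPKM in the controls and 1141, 1025 and 897 RPKM in the PgrCreCdc42f/f libraries. Rplp1, an acidic protein of the stalk that recruits elongation factors, was next with 1110, 987 and 1048 RPKM in the controls and 1137, 948 and 862 RPKM in the PgrCreCdc42f/f libraries. In both genes the groups overlapped, with PgrCreCdc42f/f library 3 the lowest of all. Rps27, which carries a zinc finger, followed at 684 ± 37.4 RPKM in the controls (SD, n = 3), and Rpl38, known in the mouse for its role in the translation of Hox mRNAs, at 627 ± 31.6 RPKM. Rpl4 (635 ± 37.3 RPKM) and Rplp0 (630 ± 70.5 RPKM) lay between them in the controls, so that the order of these neighbours was within their spread. The median of the 77 genes was 240 RPKM in the controls. It was 206 RPKM for the large subunit and 267 RPKM for the small subunit.

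The RPKM of the genes spread widely. Among the canonical genes the control means ran from 0.855 to 1110 RPKM. The 3 lowest were Rpl24 at 0.855 ± 0.120 RPKM, Rps10 at 1.82 ± 0.110 RPKM and Rpl13a at 10.7 ± 1.30 RPKM (SD, n = 3). All 3 share more than 50% of the bases of their transcript with another annotated gene on the same strand, and no other canonical gene does. In Rpl24 (chr16:55966275-55971435) the share was 71.5%, with Gm28037. In Rps10 (chr17:27630418-27636669) it was 91.6%, with RPS10-NUDT3, and in Rpl13a (chr7:45125558-45128761) it was 59.3%, with Gm45713. The paralog Rpl36al (chr12:69182731-69184083), at 0.296 ± 0.084 RPKM, was the only other gene of the 93 of this kind, with 63.1% shared with Gm49383. The rows of Gm28037, Gm45713 and Gm49383 were themselves listed at 0 in all 6 libraries. Rpl35 and Rpl23a, which share 68.3% and 55.4% of their transcript with a gene on the opposite strand, stood at 172 and 257 RPKM, and the copy Rps12l1, overlapped on that strand over its whole length, was listed at 0. The part of overlap in these levels was not tested. Fau, outside the rule, stood at 245 to 256 RPKM in the controls.

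The next in order was Rps15a at 45.7 ± 5.62 RPKM (SD, n = 3). Its annotated exons add up to 6270 bases, whereas 1 of its coding transcripts has 640. Over the canonical genes the annotated exons were 2.35 times as long as such a transcript in the median and up to 9.80 times. Per length of 1 coding transcript, a scale added after seeing the data, Rps15a came to 447 RPKM, and Rps27 led with 2067 RPKM, ahead of Rps15 with 1398 and Rps26 with 1333 RPKM. Without the 3 overlapped genes, the SD of the log2 level over 74 genes was 1.03 on the deposited scale and 0.76 per transcript length. On the transcript scale the large and small subunit then had medians of 556 and 615 RPKM. The lowest gene was Rps20 at 65.3 RPKM, whose annotated transcript of 3706 bases is the exception among these short mRNAs.

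**Figure D1:**
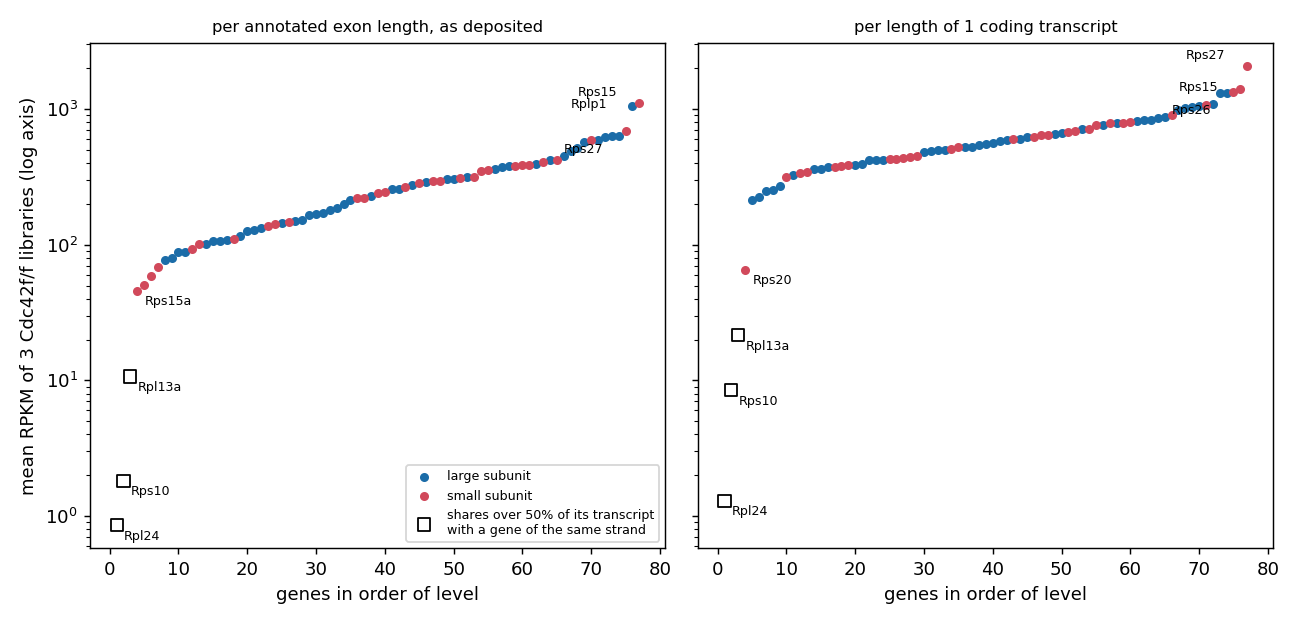
Mean RPKM of the 3 Cdc42f/f libraries on a log axis for the 77 canonical genes in order of level, per annotated exon length as deposited (left) and per length of 1 coding transcript (right). Squares mark Rpl24, Rps10 and Rpl13a, which share over 50% of their transcript with a gene on the same strand and lie apart from the rest at 0.855, 1.82 and 10.7 RPKM.

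The levels were then compared between the genotypes. Of 17584 genes with at least 0.5 RPKM in at least 3 libraries, limma called 1.65% changed, 0.762% higher and 0.893% lower in PgrCreCdc42f/f oviducts (adjusted p below 0.05, Benjamini-Hochberg over all tested genes, on log2(RPKM + 0.1)). This scale understates changes of low genes. Of the 93 genes of the rule, 87 were tested, all 77 canonical genes among them, and 0 were called higher and 0 lower. The 6 that were not tested were Rpl10l, Rpl32l, Rpl36al, Rpl39l, Rpl3l and Rps12l1. At an unadjusted p below 0.05 stood 7 canonical genes, or 9.09% of them, all with lower means in PgrCreCdc42f/f oviducts, against 20.8% of all tested genes in either direction, 11.0% lower and 9.74% higher. Limma voom on the recovered reads called 0 of them and 2.47% of all genes, with 13 canonical genes at an unadjusted p below 0.05 against 20.6% of all genes. The intervals were narrow. In 72 of the 77 genes the 95% confidence interval of the difference lay within 1.5-fold in either direction.

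As a class the values leaned to the lower side, and the class was not tested as a set. The log2 difference was negative in 62 of the 77 canonical genes, against 49.1% of all tested genes, with a median of -0.08 beside 0.01 for all tested genes. Libraries of the 2 groups did not overlap in 13 of the 77, with PgrCreCdc42f/f below in 12 (15.6%) and above in 1. Among all tested genes they lay below in 13.9% and above in 13.5%. The share below was thus near that of all genes, while the share above was smaller.

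The medians of the large and the small subunit were alike. The median log2 difference was -0.08 over the 46 large subunit genes, 39 of them negative, and -0.08 over the 31 small subunit genes, 23 of them negative. Groups without overlap, with PgrCreCdc42f/f below, were found in 10 large subunit genes (21.7%) and 2 small subunit genes (6.45%), and this contrast was not tested. The ratio of summed large to small subunit RPKM was 1.459, 1.463 and 1.460 in Cdc42f/f libraries 1 to 3 (SD 0.0023). It was 1.415, 1.435 and 1.496 in the PgrCreCdc42f/f libraries (SD 0.042), to either side of the controls.

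The direction of the class depended on PgrCreCdc42f/f library 3. The median log2 deviation of the large subunit genes from the control mean was 0.07, -0.11 and 0.04 in Cdc42f/f libraries 1 to 3. In the PgrCreCdc42f/f libraries it was 0.00, -0.09 and -0.21. The small subunit gave 0.07, -0.11 and 0.04 in the controls and 0.09, -0.08 and -0.23 in the PgrCreCdc42f/f libraries. Both subunits thus shifted alike between libraries of the same genotype, except that only the small subunit was above the control mean in PgrCreCdc42f/f library 1. In Cdc42f/f library 2 only 4 of the 77 genes were above the control mean, and in PgrCreCdc42f/f library 3 only 5, whereas PgrCreCdc42f/f library 1 had 47. Without PgrCreCdc42f/f library 3 the medians of the large and the small subunit were -0.01 and 0.01, with 43 of the 77 genes negative, and without PgrCreCdc42f/f library 1 they were -0.16 and -0.16. Without Cdc42f/f library 2 they were -0.15 and -0.14, and without Cdc42f/f library 1 they were -0.05 and -0.04. Without Cdc42f/f library 3 they were -0.08 and -0.07, and without PgrCreCdc42f/f library 2 they were -0.09 and -0.06. In these 5 fits 52 to 70 of the 77 genes were negative. The median deviation of all tested genes was between -0.01 and 0.02 in the 6 libraries.

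**Figure D2:**
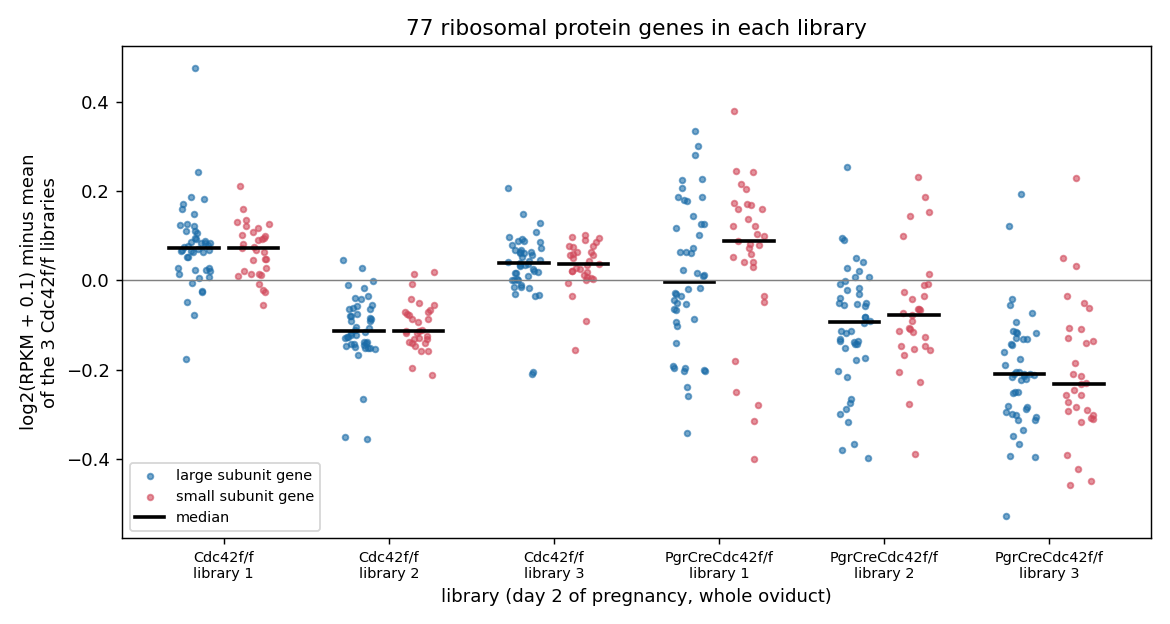
Log2(RPKM + 0.1) of each of the 77 canonical genes minus its mean in the 3 Cdc42f/f libraries, by library, for the large (blue) and small (red) subunit, with the median as a black bar. The medians of both subunits run from 0.07 in Cdc42f/f library 1 to -0.21 and -0.23 in PgrCreCdc42f/f library 3, and they part in PgrCreCdc42f/f library 1 at 0.00 and 0.09.

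Markers of other cell types were summed in the same libraries. The summed RPKM of 5 macrophage markers was 95.3 to 97.4 in the controls and 132 to 169 in PgrCreCdc42f/f oviducts, and Ctss and Tyrobp of them were called higher. The 4 markers of multiciliated cells summed to 211 to 280 RPKM in the controls and to 140 to 212 RPKM in PgrCreCdc42f/f oviducts, and the 5 smooth muscle markers to 1403 to 2169 and 2033 to 2424 RPKM, with 0 called by limma and 2 at an unadjusted p below 0.05 in either list. The 4 epithelial markers summed to 2886 to 4201 RPKM in the controls and 2025 to 3507 RPKM in PgrCreCdc42f/f oviducts, a sum carried by Ovgp1. The log2 differences were -0.36 for Ovgp1 and -0.84 for Pax8. They were 0.57 for Krt8 and 0.39 for Epcam, which are not particular to secretory cells. Limma called 0 of the 4, and 3 were at an unadjusted p below 0.05. Striated muscle markers summed to 8.29 to 14.9 RPKM in the controls and 3.20 to 6.72 RPKM in PgrCreCdc42f/f oviducts. Adipocyte markers summed to 0.970 to 2.10 and 0.246 to 0.566 RPKM, so that both sums separated the groups. Of 4 striated muscle markers 2 passed the filter, with log2 differences of -2.18 and 0.04. Of 3 adipocyte markers 1 passed it (-2.33), and 0 were called in either list. Ovary and erythroid markers overlapped between the groups. The 4 oocyte markers summed to under 1 RPKM in every library. The part of cell composition in the ribosomal protein values was not tested.

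The most negative difference among canonical genes was that of Rpl36, a large subunit protein, and it missed the threshold. Rpl36 (chr17:56613416-56614243) measured 397, 381 and 397 RPKM in the controls and 327, 301 and 272 RPKM in the PgrCreCdc42f/f libraries. All PgrCreCdc42f/f libraries lay below all controls. The log2 difference was -0.39 (SE 0.10, adjusted p = 0.107 in limma), and over the 15 other settings tried it ran from -0.45 to -0.32 with the smallest adjusted p at 0.0754.

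Rps26, a small subunit protein at the mRNA exit, measured 593, 559 and 612 RPKM in the controls and 472, 502 and 430 RPKM in the PgrCreCdc42f/f libraries, again without overlap (log2 difference -0.33, limma adjusted p = 0.161). Rplp0, the scaffold of the stalk, gave 555, 639 and 695 RPKM against 495, 476 and 538 RPKM (log2 difference -0.32, limma adjusted p = 0.221). In Rplp0 the gap between the groups was smaller than the spread of the controls. The other 4 genes at an unadjusted p below 0.05, named after their values were seen, were Rpl28 (-0.30), Rpl41 (-0.27), Rpl11 (-0.27) and Rpl32 (-0.24), all as log2 differences of large subunit genes without overlap. Their adjusted p in limma were 0.138 for Rpl28 and Rpl11, 0.183 for Rpl41 and 0.234 for Rpl32.

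Rpl41 has the shortest coding sequence of the class, 75 bases without the stop codon, and is shown for its size, with the first and last codons in capitals (chr10:128548114-128549305, minus strand, GENCODE M21 on GRCm38).
Rpl41: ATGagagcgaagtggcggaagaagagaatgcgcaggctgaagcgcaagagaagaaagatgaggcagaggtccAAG
It measured 499, 482 and 500 RPKM in the controls and 428, 383 and 415 RPKM in the PgrCreCdc42f/f libraries, so the lowest control stood above the highest PgrCreCdc42f/f library.

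Among canonical genes the largest value in the other direction was that of Rpl3, which builds part of the peptidyl transferase centre, with 197, 139 and 205 RPKM in the controls and 225, 212 and 204 RPKM in the PgrCreCdc42f/f libraries (log2 difference 0.26, limma adjusted p = 0.409). Cdc42f/f library 2 was low, the groups overlapped, and without that library the log2 difference was 0.08, under that of Rps24 (0.14). Rps24 measured 120, 99.8 and 111 RPKM in the controls and 143, 129 and 112 RPKM in the PgrCreCdc42f/f libraries (log2 difference 0.21, limma adjusted p = 0.366). Both Rps24 and the next gene, Rps7, are proteins of the small subunit needed for the maturation of its RNA. Rps7 was the canonical gene whose PgrCreCdc42f/f libraries all lay above the controls, with 248, 249 and 240 RPKM against 283, 273 and 254 RPKM (log2 difference 0.14, limma adjusted p = 0.417).

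**Figure D3:**
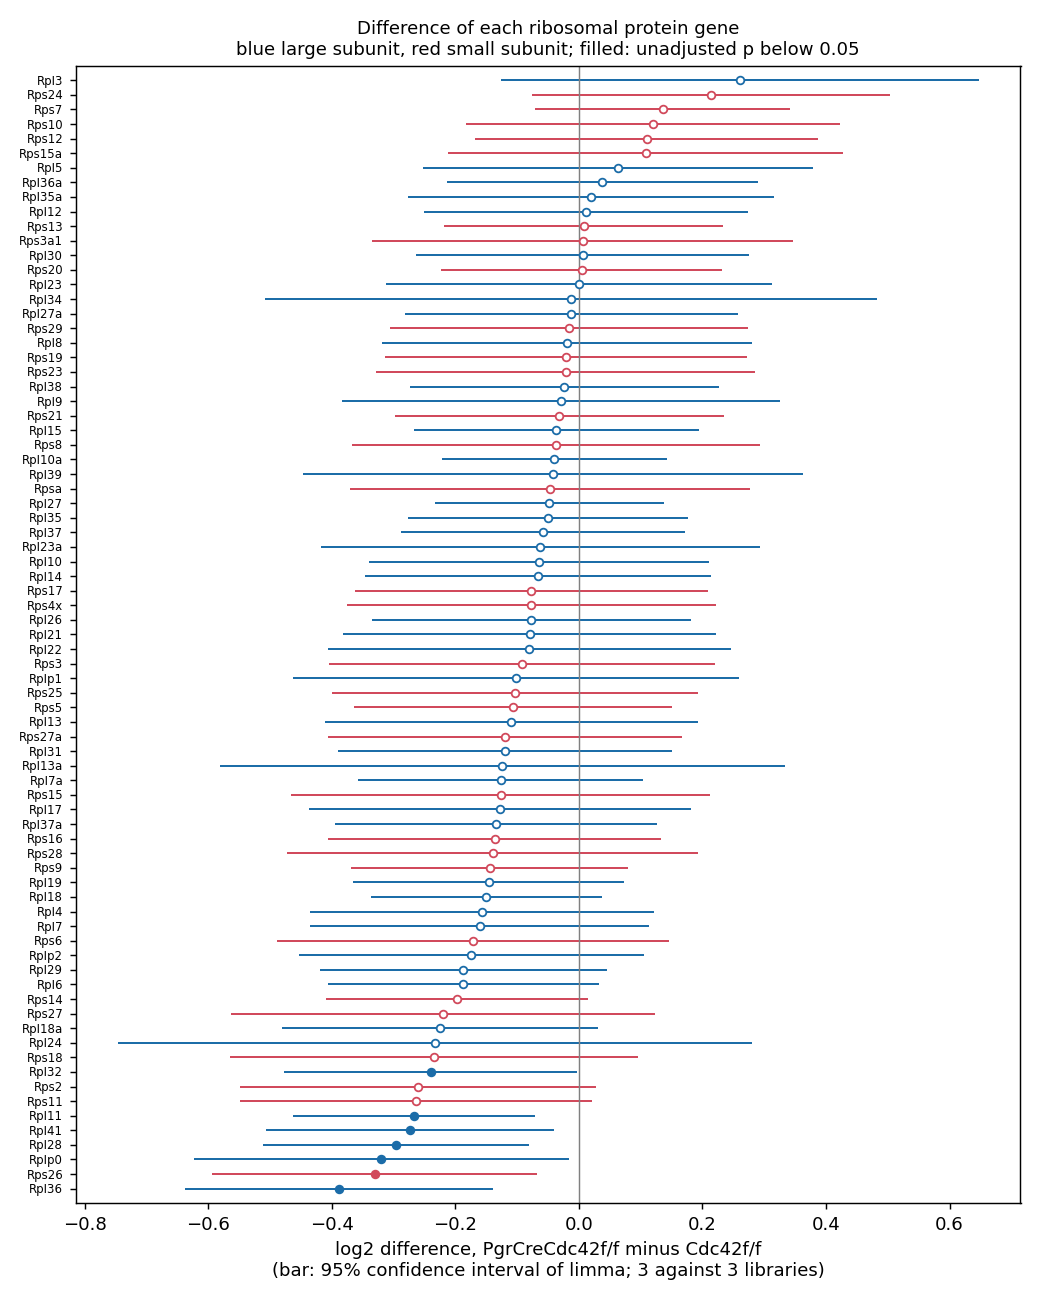
Log2 difference (PgrCreCdc42f/f minus Cdc42f/f) of the 77 canonical genes in order of size, with the 95% confidence interval from limma, for the large (blue) and small (red) subunit. The values run from -0.39 (Rpl36) to 0.26 (Rpl3), 62 are negative, and the 7 filled points are those at an unadjusted p below 0.05.

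Structural neighbours in the ribosome were compared next. In the stalk, Rplp0 had a log2 difference of -0.32, Rplp1 of -0.10, Rplp2 of -0.17 and Rpl12, its base, of 0.01. In the pair that binds the 5S RNA and can restrain MDM2, Rpl11 lay below the controls in all PgrCreCdc42f/f libraries (177, 162 and 167 RPKM against 147, 140 and 134 RPKM), while Rpl5 measured 138, 117 and 133 RPKM against 159, 129 and 119 RPKM. All 8 proteins around the exit tunnel had negative values, from -0.16 (Rpl4) to -0.04 (Rpl39), with the smallest adjusted p in limma at 0.412. Of all 46 large subunit genes 39 were negative (84.8%), so the sign does not set this group apart. Of the 2 proteins of the mRNA entry, Rps2 had a log2 difference of -0.26 and Rps3 of -0.09.

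A scale relative to the class itself was added after seeing the data, by subtracting the median of the 77 genes in each library. On it 11 of the 77 genes lay below the controls without overlap, and 5 lay above. Of all tested genes 8.34% lay below and 18.1% above on this scale, where the deposited values gave 13.9% and 13.5%. The subtraction centres the 77 genes by construction and shifts all other genes, so these shares are no yardstick for the 77. All of this is description with no test. Of the 77, those above were Rpl3 (0.34), Rps24 (0.29), Rps7 (0.21), Rps12 (0.18) and Rpl36a (0.11), as log2 differences relative to the class. The lowest below were Rpl36 (-0.31), Rps26 (-0.26), Rpl28 (-0.22), Rpl41 (-0.20) and Rpl11 (-0.19). The SD over the 77 genes of the log2 difference between 2 libraries was 0.136, 0.131 and 0.105 for the 3 pairs of control libraries. It was 0.157, 0.160 and 0.123 for the 3 pairs of PgrCreCdc42f/f libraries, so the ranges of the SD overlapped. The interquartile range over the same genes was 0.133, 0.129 and 0.089 for the control pairs. For the PgrCreCdc42f/f pairs it was 0.168, 0.198 and 0.148, without overlap. The 3 pairs of a group share its 3 libraries, so they are not independent, and this contrast was not tested. Over all tested genes the interquartile range was 0.435, 0.379 and 0.344 for the control pairs. It was 0.397, 0.434 and 0.306 for the PgrCreCdc42f/f pairs, with overlap.

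The differences were also set against the level and the sequence of the genes. In the 39 genes of highest control level, from 240 RPKM up, the median log2 difference was -0.13 and 36 were negative. In the other 38 it was -0.04 and 26 were negative. Over the 77 genes, which share the same libraries, the log2 difference had a Spearman correlation of -0.42 with the control level (Pearson -0.27), of -0.32 with the GC content of the transcript (Pearson -0.34) and of 0.05 with the share of 50-base stretches found in other annotated genes (Pearson 0.05). With the annotated exon length, by which RPKM is divided, it was 0.33 (Pearson 0.44). Since the control values enter both the level and the difference, the first is partly built in. Genes with a pyrimidine run at a start had a median log2 difference of -0.11 (27 genes, 22 negative), and matched genes without one of -0.06 (30 genes, 23 negative).

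Many of these genes have near-identical copies. In 51 of the 77 genes more than 50% of the 50-base stretches of the transcript occur in another annotated gene as well, and in Rps27 it is 98.6%. The coding sequences of Rps27 and its relatives show the range. Capitals mark the bases that differ from Rps27, and the spans are those of the genes (GENCODE M21 on GRCm38, chr3:90212522-90213651, chr9:114982366-114982739 and chr9:66946086-66949516).
Rps27: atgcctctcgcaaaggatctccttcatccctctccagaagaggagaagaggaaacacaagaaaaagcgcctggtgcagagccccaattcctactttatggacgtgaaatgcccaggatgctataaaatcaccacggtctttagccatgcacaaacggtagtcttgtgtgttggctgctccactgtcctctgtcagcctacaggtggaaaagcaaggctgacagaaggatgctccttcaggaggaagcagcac
Rps27rt: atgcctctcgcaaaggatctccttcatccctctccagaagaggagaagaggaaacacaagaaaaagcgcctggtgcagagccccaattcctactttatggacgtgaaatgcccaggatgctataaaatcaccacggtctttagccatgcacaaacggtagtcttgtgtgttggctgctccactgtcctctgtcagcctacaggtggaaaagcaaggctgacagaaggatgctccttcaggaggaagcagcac
Rps27l: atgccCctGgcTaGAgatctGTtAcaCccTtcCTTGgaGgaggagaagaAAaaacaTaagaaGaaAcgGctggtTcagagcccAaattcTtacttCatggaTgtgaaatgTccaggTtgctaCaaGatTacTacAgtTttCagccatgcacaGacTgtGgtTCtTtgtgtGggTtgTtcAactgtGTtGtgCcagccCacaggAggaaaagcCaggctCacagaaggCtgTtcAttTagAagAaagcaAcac
Rps27rt, a retrotransposed copy, differs from Rps27 at 0 of 252 bases, and Rps27l, a paralog known as a p53 target, at 60. Rps27 measured 706, 641 and 704 RPKM in the controls and 667, 608 and 497 RPKM in the PgrCreCdc42f/f libraries (log2 difference -0.22, limma adjusted p = 0.430). Rps27rt measured 31.7, 36.6 and 30.8 RPKM in the controls and 32.3, 24.4 and 23.9 RPKM in the PgrCreCdc42f/f libraries. Its coding reads cannot be told from those of Rps27, so its values are uncertain.

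Rps27l had the largest positive difference of all 87 tested genes, with 39.3, 37.6 and 32.0 RPKM in the controls and 37.8, 47.5 and 47.3 RPKM in the PgrCreCdc42f/f libraries (log2 difference 0.28, limma adjusted p = 0.268). PgrCreCdc42f/f library 1 lay within the controls. Relative to Rps27, a ratio looked at after the values were known, Rps27l stood at 5.56, 5.87 and 4.54% in the controls and at 5.67, 7.81 and 9.52% in the PgrCreCdc42f/f libraries.

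Of the other copies, Rps3a3 had the highest level. Rps3a3, annotated as a processed pseudogene, is 98.9% identical to Rps3a1 over the coding sequence and stood at 208 ± 17.8 RPKM in the controls against 209 ± 30.8 RPKM in PgrCreCdc42f/f oviducts, or 51.6 to 55.1% of the RPKM of Rps3a1 in all 6 libraries. Rps3a2 (99.5% identical) had 19.8 ± 3.15 RPKM and Rpl37rt (99.7%) 6.37 ± 1.004 RPKM in the controls (SD, n = 3). Rps4l, a transcribed processed pseudogene 79.6% identical to the X-linked Rps4x, had the largest negative difference of the tested genes, with 15.8, 11.999 and 17.3 RPKM against 7.55, 11.4 and 13.1 RPKM, and the groups overlapped (log2 difference -0.51, limma adjusted p = 0.277). Without PgrCreCdc42f/f library 1 it was -0.28, nearer to 0 than that of Rpl36 (-0.45). Rps4x itself measured 407 ± 32.0 and 386 ± 43.7 RPKM. Rpl22l1, the paralog of Rpl22, stood at 5.37 ± 1.16 and 5.31 ± 1.02 RPKM and Rpl7l1, a nucleolar relative of Rpl7, at 14.5 ± 1.88 and 15.2 ± 0.626 RPKM. Rpl6l, at 1.63 ± 0.819 and 1.52 ± 0.223 RPKM, is 96.8% identical to Rpl6. The paralogs known from muscle and testis were hardly detected in the oviduct, with control means of 0.298 RPKM for Rpl3l, 0.172 RPKM for Rpl39l and 0 for Rpl10l.

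Rows named as pseudogenes, left out by the rule, were set beside their parent genes. Of 21 such rows with at least 5 RPKM in any library, 3 varied more than 10-fold over the libraries, and the others at most 2.37-fold. These 3 were picked for this after the values were seen and do not stand for the other rows. Of the others, Rps26-ps1 (log2 difference -0.41) and Rpl28-ps1 (-0.44) lay below the controls without overlap, as did Rps26 and Rpl28. Rps10-ps2 (-0.24) did so too, whereas Rps10 (0.12) overlapped between the groups. Each of the 3 picked rows is more than 99% identical to its parent over the coding sequence. The windows below show the substitutions that separate Rpl34 (chr3:130726831-130730398, minus strand) from Rpl34-ps1 (chr6:71124610-71124963, plus strand), T132C and C318G, and Rpl3 (chr15:80077791-80091868, minus strand) from Rpl3-ps1 (chrX:13202571-13203780, plus strand), C57A and T786C. Positions count from the A of the start codon of the parent gene, whose base is given first, and the differing base is in capitals (GENCODE M21 on GRCm38).
Rpl34: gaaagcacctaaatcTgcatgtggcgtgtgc
Rpl34-ps1: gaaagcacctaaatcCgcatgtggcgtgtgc
Rpl34: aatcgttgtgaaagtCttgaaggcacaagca
Rpl34-ps1: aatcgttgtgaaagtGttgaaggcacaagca
Rpl3: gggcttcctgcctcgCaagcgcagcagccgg
Rpl3-ps1: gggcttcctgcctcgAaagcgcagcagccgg
Rpl3: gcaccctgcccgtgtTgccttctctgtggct
Rpl3-ps1: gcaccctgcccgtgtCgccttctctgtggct
Over the 351 and 1209 coding bases these are all the differences, so a coding read that covers none of them fits both copies. Of the 50-base stretches of the whole transcript, 50.6% in Rpl34 and 85.6% in Rpl3 occur in another annotated gene.

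Rpl34-ps1 measured 8.71, 88.3 and 102 RPKM in Cdc42f/f libraries 1 to 3 and 108, 128 and 5.55 RPKM in the PgrCreCdc42f/f libraries. Rpl34 measured 120, 71.7 and 74.4 RPKM in the controls and 78.2, 84.9 and 93.8 RPKM in the PgrCreCdc42f/f libraries. Those with the low copy, Cdc42f/f library 1 and PgrCreCdc42f/f library 3, were the 2 with the highest Rpl34, and they belong to different genotypes. In reads, the copy had 134 and 92 in these libraries and 1448 to 1926 in the others. Rpl34 itself had 13755 and 11612 reads in these libraries and 8774 to 9662 in the others.

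Rpl3-ps1 measured 21.5, 49.7 and 24.8 RPKM in the controls and 5.30, 4.51 and 5.08 RPKM in the PgrCreCdc42f/f libraries. It was called lower (log2 difference -2.56, SE 0.30, limma adjusted p = 0.0223), 1 of 72 tested rows of this kind, but the call was lost without Cdc42f/f library 1 (adjusted p = 0.0555) or 3 (0.0712) and without PgrCreCdc42f/f library 2 (0.0915) or 3 (0.0733). Rpl3 was lowest, at 139 RPKM, in Cdc42f/f library 2, where the copy was highest. In reads, Rpl3 had 27238, 20470 and 31471 in Cdc42f/f libraries 1 to 3, and Rpl3-ps1 had 1131, 2786 and 1446. Rps2-ps10 measured 0.620, 0.627 and 1.33 RPKM in the controls and 39.7, 1.42 and 29.9 RPKM in the PgrCreCdc42f/f libraries (log2 difference 3.75, limma adjusted p = 0.157). Rps2, which it matches at 874 of 879 coding bases, measured 347, 337 and 377 RPKM in the controls. In the PgrCreCdc42f/f libraries Rps2 measured 268, 338 and 284 RPKM, lowest in the same 2 libraries in which the copy was high. In reads, Rps2 had 22910, 26247 and 24303 in PgrCreCdc42f/f libraries 1 to 3, and Rps2-ps10 had 1790, 58 and 1350. Rpl34 and Rpl3 were also the canonical genes that varied most over the 6 libraries, by 1.67-fold and 1.61-fold from the lowest to the highest, against a median of 1.30-fold. How reads were shared out between copies is not stated, and its part in these values was not tested.

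**Figure D4:**
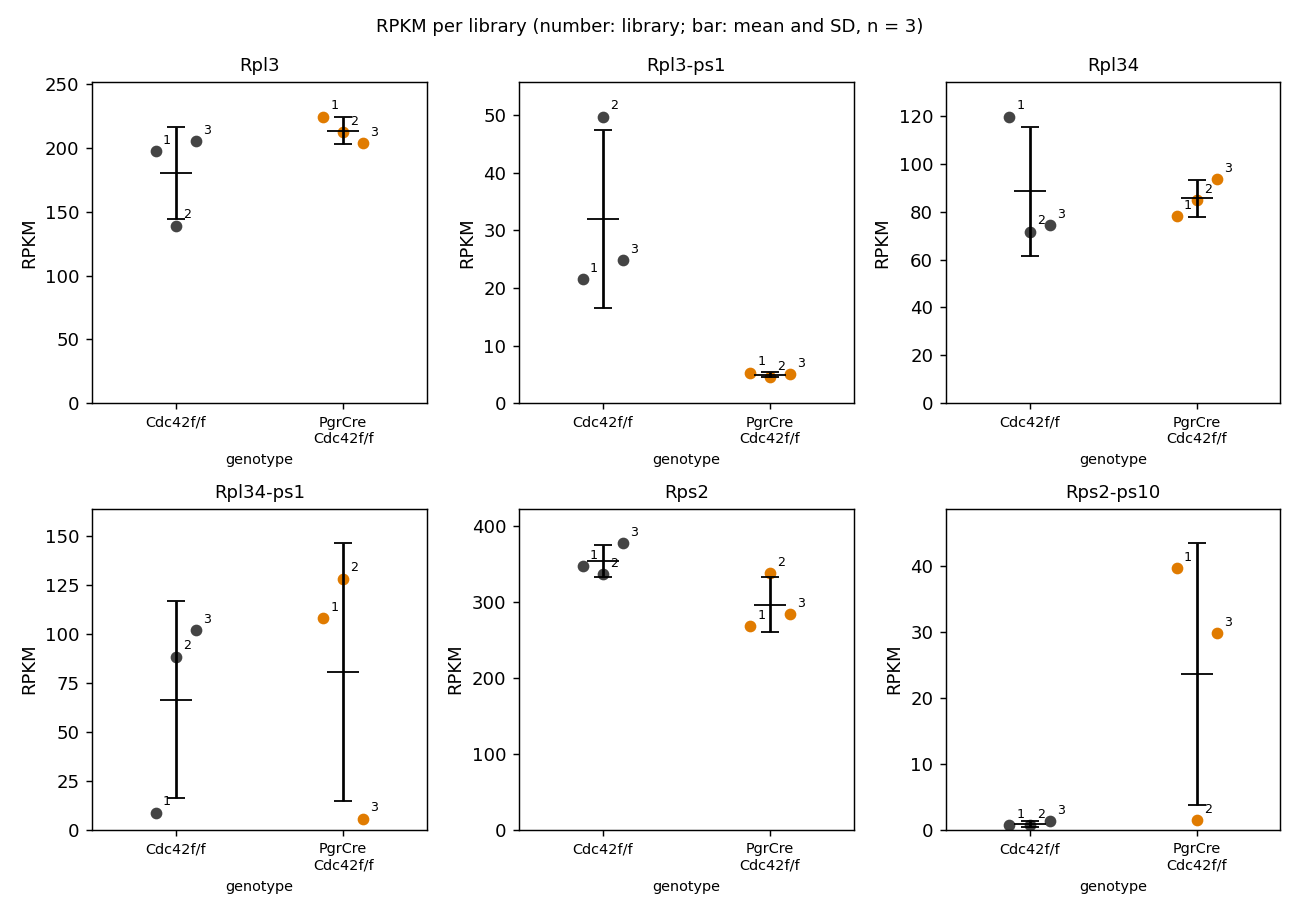
RPKM in each library of Rpl3, Rpl34 and Rps2 and of the near-identical row Rpl3-ps1, Rpl34-ps1 or Rps2-ps10 beside each, with the mean and SD of each genotype (n = 3) and the library number at each point. Rpl3 is lowest (139 RPKM) in Cdc42f/f library 2, where its copy is highest (49.7 RPKM), Rps2 is lowest in PgrCreCdc42f/f libraries 1 and 3, where its copy is high, and Rpl34 is highest where its copy is low.

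The wider machinery of translation was compared with the same test. Of 77 tested genes of mitochondrial ribosomal proteins 0 were called, with a median log2 difference of -0.03 and 49 negative, and the median was 0.01 without PgrCreCdc42f/f library 1 and 0.00 without Cdc42f/f library 1. The smallest p was that of Mrps18a (12.8, 13.5 and 12.2 RPKM against 15.5, 16.6 and 16.9 RPKM, limma adjusted p = 0.0793). Of 33 translation factors 0 were called, with a median of 0.00, or -0.05 without Cdc42f/f library 2. The smallest p was that of Eif4b, an activator of the helicase that unwinds mRNA leaders (113, 125 and 116 RPKM against 100.3, 95.4 and 99.5 RPKM, limma adjusted p = 0.127). Rack1 gave 129, 115 and 124 RPKM against 122, 113 and 101 RPKM, and Fau, outside the rule, had a log2 difference of -0.20 (limma adjusted p = 0.208).

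Of 40 genes of ribosome biogenesis 0 were called. The log2 difference was positive in 31 of them, against 8950 of all 17584 tested genes, with a median of 0.12. Without Cdc42f/f library 2 it was positive in 24 with a median of 0.06, and without PgrCreCdc42f/f library 3 in 27 with a median of 0.08. Gar1, of the H/ACA particles that modify ribosomal RNA, measured 8.43, 7.91 and 8.32 RPKM in the controls against 9.73, 9.42 and 10.8 RPKM (log2 difference 0.28, limma adjusted p = 0.143). Myc, a transcription factor that drives these genes, just missed the threshold, with 11.3, 10.9 and 11.9 RPKM in the controls against 14.8, 15.1 and 15.96 RPKM (log2 difference 0.43, limma adjusted p = 0.0520). Mycn, its relative, measured 3.67, 2.74 and 2.64 RPKM against 1.99, 1.49 and 1.62 RPKM (log2 difference -0.78, limma adjusted p = 0.0811). Of 20 growth control genes 0 were called, although Myc was called under 3 of the 15 other settings. At an unadjusted p below 0.05 stood 3 mitochondrial ribosomal protein genes, 2 translation factors, 3 biogenesis genes and 3 growth control genes, each a smaller share of its list than the 20.8% of all tested genes, and limma voom called 0 in each of these lists.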

How the data were processed

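Total RNA of whole oviducts was sequenced on a BGISEQ-500 by the authors, who deposited 1 table of RPKM values for 6 libraries. The submitters' processing notes name HISAT2, edgeR and mm10 (GRCm38), and the study's methods name Tophat2 for the RPKM values. Which made the table, whether strand was used and how reads with several positions were counted are not stated. All columns were matched to samples by name. Depth was recovered by multiplying RPKM by GENCODE M21 exon lengths, which gave whole reads in 98.8% of 35358 rows (tolerance 0.01) and 42.4 to 46.4 M reads per library.

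Genes with at least 0.5 RPKM in at least 3 libraries entered limma 3.58.1 (R 4.3.3, variance trend, unpaired) as log2(RPKM + 0.1), with p adjusted over all 17584 genes. Sequences were aligned with Biopython 1.88, and sequence features come from 1 transcript per gene. Alternatives were other pseudocounts, filters and normalizations, a fit lacking the variance trend, a block for the replicate number, voom on the recovered reads and leaving out each library. Genes named are called members, the 4 largest differences in each direction, the 4 highest and lowest canonical levels, paralog pairs, structural groups, and up to 3 genes with the smallest p of each other list. Other genes were named after their values were seen. The members and lists were chosen with earlier results of these data known.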

Additional observations from a re-analysis of the deposited data

How the results depend on the processing

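The count of called ribosomal protein genes was 0 in each direction under all 15 alternatives, leaving out each library included. The smallest adjusted p of any member was 0.0754, for limma voom on the recovered reads. The number of canonical genes at an unadjusted p below 0.05 ranged from 2 without Cdc42f/f replicate 3 to 13 with voom. The 12 named ribosomal protein genes kept their direction under all alternatives, and none passed the threshold. Leaving out 1 library at a time gave medians from -0.16 to -0.01 for the large subunit, from -0.16 to 0.01 for the small subunit and from -0.04 to -0.01 for their difference, and log2 differences of Cdc42 from -0.18 to -0.10. Without the 3 overlapped genes, an alternative chosen after seeing the data, the medians stayed within the spread between libraries.

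Of the growth control genes, 1 was called, Myc, when genes under a mean of 2 RPKM were removed (adjusted p = 0.0466), with median ratio rescaling (adjusted p = 0.0483) and with quantile normalization (adjusted p = 0.0456). With all 93 genes of the rule, copies included, the large to small subunit ratio of summed RPKM in the controls was 1.41 in place of 1.46. With the replicate number as a block 0 of all 17584 genes and 0 ribosomal protein genes were called, Rpl3-ps1 had an adjusted p of 0.117, and 3 canonical genes were at an unadjusted p below 0.05. The calls among all genes numbered 57 higher and 51 lower with no filter, 75 and 112 with no variance trend, and 9 to 118 higher and 2 to 173 lower when 1 library was left out. Samples that share a number did not deviate together (correlations of -0.03, -0.07 and 0.08), so the values gave no sign of pairing by number. With 3 libraries per group this cannot exclude a pairing. Depth was high for this class, with a median over canonical genes of 15764 reads in the lowest library of each, while 30 reads were recovered for Rpl24.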
